A study of Mus musculus with 6 samples.

Results

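Collagen chain genes were read on 6 mouse expression arrays: all genes whose symbol has the form Col, a number, the letter a and a number, each read from whichever of its probe sets was brightest on average over the 6 arrays. The rule found 42 genes with 82 probe sets, of 45037 probe sets that are not controls and 18193 named genes. Both BMDC arrays held RNA of dendritic cells grown from bone marrow (n = 2), and both FDC arrays held RNA of follicular dendritic cells kept in culture (n = 2). FL-Y, an FDC-like cell line transformed with SV40, gave 1 array untreated and 1 array after activation through an antibody to the lymphotoxin beta receptor (LTbeta receptor). The labels give no strain, age, culture time, antibody dose or time of activation, and FL-Y is 1 line. Nothing in the labels says whether arrays of 1 cell type came from separate cultures or animals, so p-values measure the spread between these arrays, which may be technical. The design text names FDC against BMDC as the comparison made.

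Collagens are secreted proteins in which 3 chains wind into a triple helix. Fibrillar collagens (types I, II, III, V, XI, XXIV and XXVII) build the banded fibres of connective tissue, type IV builds the sheet of basement membranes, and type VI forms beaded filaments around cells. FACIT collagens (fibril-associated collagens with interrupted helices) sit on the surface of fibrils. In lymphoid organs, stromal cells lay down collagen-rich fibres, and FDC are the stromal cells found among the B cells of a follicle, where they display antigen. BMDC are leukocytes that take up antigen and present it.

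Signals are linear array units as deposited, with a trimmed mean of 500 on every array, and the array median ran from 47.9 to 84.4. A signal of 1 probe set cannot be set against that of another, since probes bind with unequal strength. Sums over a marker list are led by its brightest probe sets, so they serve only to compare arrays and are not levels of a cell type. The leukocyte markers listed as a check (9 genes) summed to 215660 and 169140 in BMDC, 3270 and 2197 in FDC, 401 on FL-Y and 320 on activated FL-Y. Of 8 classical FDC markers measured, 0 were called higher in FDC than in BMDC and 3 (Fcgr2b, Mfge8 and Clu) were called lower. Cr2, complement receptor 2, read 119.5 and 4.1 on FDC against 59.1 and 71.1 on BMDC. Vcam1, an adhesion molecule of FDC, read 6959.3 and 5764.4 on FDC against 108.4 and 874.7 on BMDC, without overlap and just short of the threshold (adjusted p = 0.0566). Cxcl13, the follicular B cell chemokine, read 1288.2 and 64.5 on FDC, 50.9 and 36.4 on BMDC and 47.9 on FL-Y. Of 10 fibroblast markers, 4 rose and 1 fell in FDC, and of 8 mural and smooth muscle markers 2 rose, Acta2 (smooth muscle actin) and Tagln (transgelin). The cultures are called FDC and FL-Y here as labelled.

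Promoters are shown for 4 members that were bright on FDC array 1: Col1a2 and Col3a1, which were high on both FDC arrays, and the neighbours Col6a1 and Col6a2, which split these arrays together. Each run is the 250 bases before the annotated start, from RefSeq (GRCm38.p6), 5′ to 3′ on the gene's strand. Capitals mark 3 motifs on either strand: the TATA box letters TATAAA, the CCAAT box letters CCAAT and the GC box letters GGGCGG.
Col1a2, chr6:4505368-4505617, plus strand: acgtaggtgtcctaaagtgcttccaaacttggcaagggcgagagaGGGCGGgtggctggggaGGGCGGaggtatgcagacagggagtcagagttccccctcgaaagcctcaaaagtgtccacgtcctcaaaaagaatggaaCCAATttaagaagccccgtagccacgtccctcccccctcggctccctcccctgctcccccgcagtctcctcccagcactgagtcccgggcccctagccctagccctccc
Col3a1, chr1:45311288-45311537, plus strand: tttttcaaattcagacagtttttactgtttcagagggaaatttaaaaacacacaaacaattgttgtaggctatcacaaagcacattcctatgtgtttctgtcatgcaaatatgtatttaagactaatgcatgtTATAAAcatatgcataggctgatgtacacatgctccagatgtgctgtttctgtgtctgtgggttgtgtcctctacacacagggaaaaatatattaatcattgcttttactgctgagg
Col6a1, chr10:76726045-76726294, minus strand: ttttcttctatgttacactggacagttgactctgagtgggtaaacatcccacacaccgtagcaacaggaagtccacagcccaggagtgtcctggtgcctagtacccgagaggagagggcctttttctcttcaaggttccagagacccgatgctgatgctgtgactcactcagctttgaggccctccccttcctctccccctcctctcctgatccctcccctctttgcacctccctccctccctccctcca
Col6a2, chr10:76623631-76623880, minus strand, 1 of its 2 windows: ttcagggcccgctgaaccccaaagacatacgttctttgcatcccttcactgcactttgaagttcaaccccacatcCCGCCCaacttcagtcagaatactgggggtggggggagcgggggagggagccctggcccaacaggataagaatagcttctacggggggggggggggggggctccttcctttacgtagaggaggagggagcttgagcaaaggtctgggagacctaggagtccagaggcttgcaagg

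In these windows Col1a2 held GGGCGG 2 times and CCAAT 1 time, Col3a1 held TATAAA 1 time, Col6a2 held GGGCGG 1 time and Col6a1 held none of the 3. The other Col6a2 window, not shown, held GGGCGG 3 times. The windows of Col1a2 and Col3a1 also differed in base composition, at 62.0% and 35.2% G and C, against a median of 52.4% over all 32851 windows. RefSeq windows were at hand for 33 of the 42 genes (36 windows). GGGCGG stood in 58.3% of the collagen windows and 32.7% of all windows, CCAAT in 36.1% and 33.8%, and TATAAA in 13.9% and 12.4%. GC content was not matched in this count, and a match of letters is a description of the window. In the RefSeq gene table, 7 pairs of members were neighbours: Col3a1 with Col5a2, Col4a1 with Col4a2, Col4a3 with Col4a4, Col4a5 with Col4a6, Col6a1 with Col6a2, Col6a4 with Col6a5 and Col9a1 with Col19a1 had no protein-coding gene between them.

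**Figure D1:**
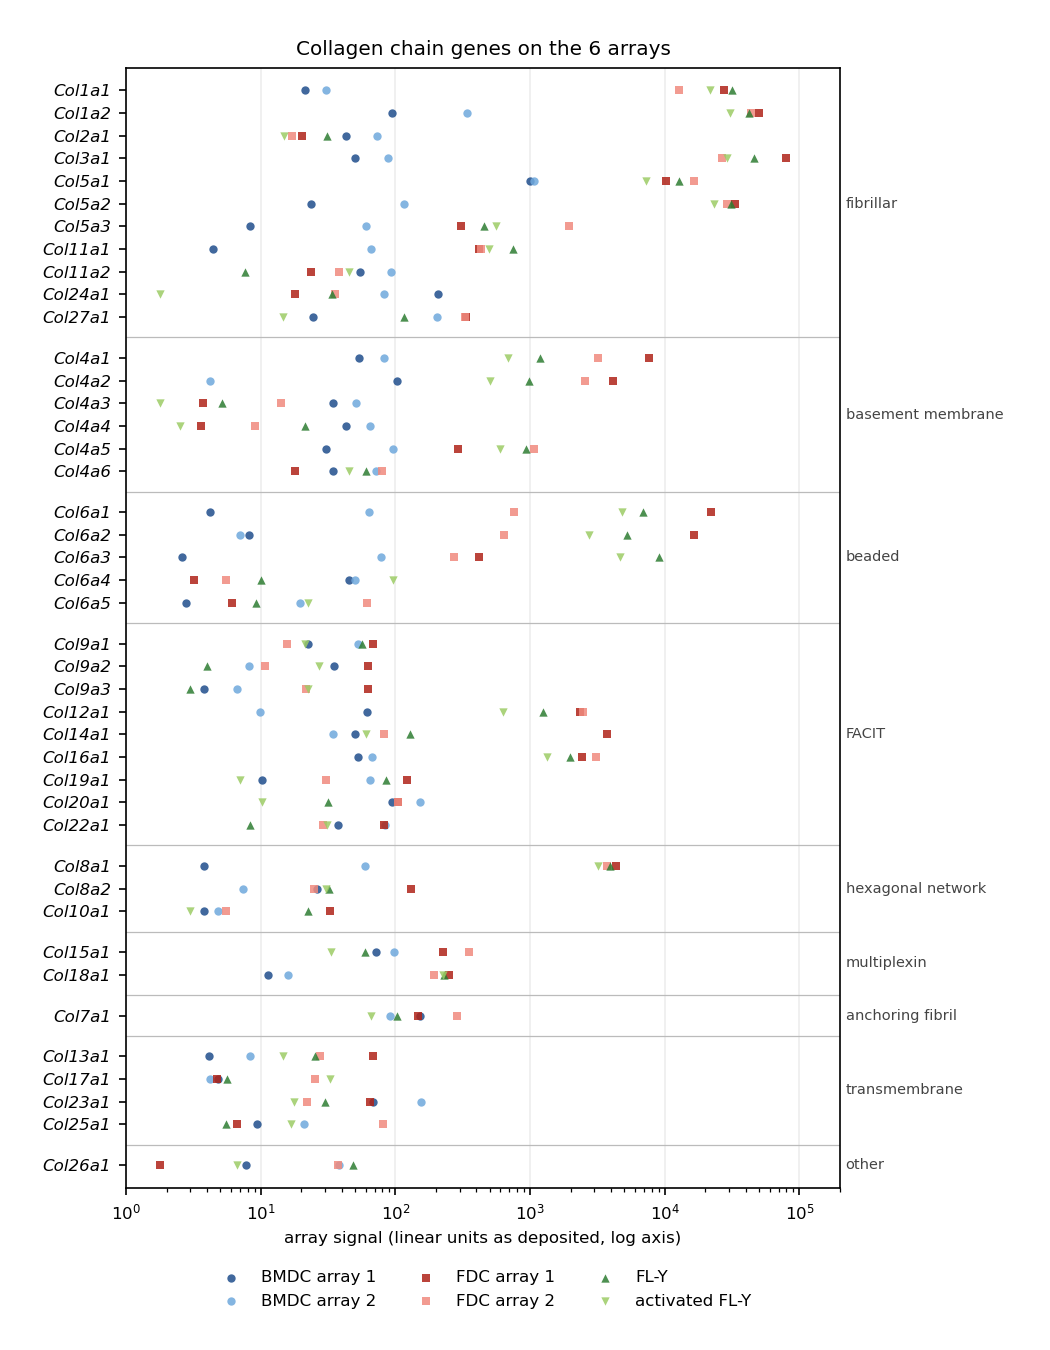
Signal of each of the 42 collagen genes on the 6 arrays, in linear units on a log axis, grouped by collagen class; each point is 1 array. Over 1000 lie 13 and 12 members on the FDC arrays, 12 on FL-Y and 10 on activated FL-Y, against 1 (Col5a1) on each BMDC array, and 20 members stay under 200 on every array.

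The comparison of FDC with BMDC asks how the profile of the cultured stromal cell differs from that of the bone marrow-derived one. Of the 42 collagen genes, 26 were bright enough to be tested, 13 rose in FDC, 0 fell and 13 were not called. The test was limma on log2(signal + 14.2) with p-values adjusted by Benjamini-Hochberg over the 27022 tested probe sets (threshold 0.05), and every log2 difference below is on that scale. Over all probe sets tested, the share called higher in FDC was 4.84% and the share called lower 4.09%. At an unadjusted p under 0.05, 18 collagen genes were higher and 1 was lower. The median log2 difference was 1.49 over all 42 genes and 3.57 over the 26 tested, against -0.053 over all probe sets tested. A gene that passes the filter only through the FDC arrays had to differ, so the 26 are not a sample of all collagens. Both FDC arrays lay above both BMDC arrays for 23 of the 42 genes, and the reverse held for 7, where the shares over all probe sets were 22.4% and 24.5%. In RNA of whole cultures, fewer cells of a type and less RNA per cell cannot be told apart. Marker sums moved with the same contrast. The mural and smooth muscle markers summed to 609 and 580 on BMDC against 19226 and 62763 on FDC, and the fibroblast markers to 33753 and 24634 against 70397 and 41419. For 9 of the 10 fibroblast markers both FDC arrays lay above both BMDC arrays, and for 1, S100a4, the reverse held. S100a4 gave most of the BMDC sum, at 26482.2 and 21125 against 4172.6 and 4964.8 on FDC. The part of these marker lists and of the leukocyte markers in the collagen differences was not tested.

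**Figure D2:**
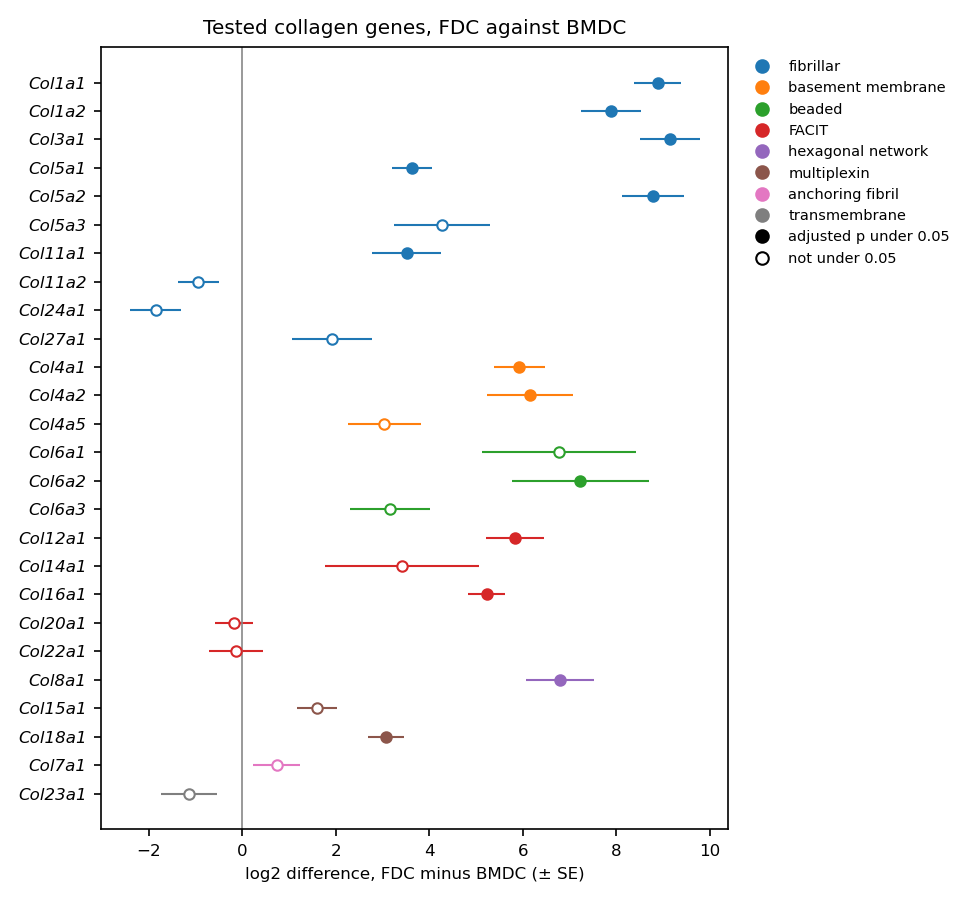
Log2 difference between FDC and BMDC (mean of 2 arrays each) for the 26 tested collagen genes, with the standard error from limma; colours give the class and filled points have an adjusted p under 0.05. The 13 filled points lie between 3.07 and 9.14, and no point left of 0 is filled.

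Fibrillar collagens gave the highest differences, and 6 of 11 members rose. Col1a1, the α1 chain of type I collagen, read 21.5 and 30.5 on BMDC, 27728 and 12786.3 on FDC, 31442.9 on FL-Y and 21747.2 on activated FL-Y. The log2 difference was 8.88 ± 0.51 (SE, n = 2 and 2, adjusted p = 0.00264). Col1a2, the partner chain of type I, read 95.1 and 342.4 on BMDC, 50250.7 and 43768.2 on FDC, 42140.5 on FL-Y and 30499.9 on activated FL-Y, a difference between FDC and BMDC of 7.89 ± 0.64 (adjusted p = 0.00397). Both type I chains were above 10000 on every FDC and FL-Y array. On the BMDC arrays Col1a1 lay under the array median, and this probe set of Col1a2 lay above it. The other Col1a2 probe sets lay under it, at 18.7 and 10 and at 1.6 and 3.7. A second probe set of Col1a1 gave a smaller difference of 3.0, which also passed the test (adjusted p = 0.0197).

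Col3a1, the single chain of type III collagen and a main component of reticular fibres, read 50.3 and 87.8 on BMDC, 79140.6 and 26579.1 on FDC, 45856 on FL-Y and 29079.2 on activated FL-Y. Its difference of 9.14 ± 0.64 (adjusted p = 0.0031) was the highest of the 26 tested members with this offset. With a floor in its place Col1a1 was higher, at 9.52 against 9.43. The FDC arrays were 2.98-fold apart, a gap far smaller than that to BMDC. A second Col3a1 probe set read 8924.5 and 670.4 on the FDC arrays and missed the threshold, with a difference of 5.27 and an adjusted p of 0.0831. The neighbouring gene Col5a2, a chain of the type V collagen that starts fibrils, read 23.5 and 116.2 on BMDC, 33076.1 and 29124.1 on FDC, 31118.1 on FL-Y and 23303.4 on activated FL-Y. It rose by 8.79 ± 0.66 (adjusted p = 0.00347), with FDC arrays only 1.14-fold apart.

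Col5a1, the other main chain of type V, read 1004 and 1071.8 on BMDC, 10191.6 and 16625.5 on FDC, 12786.9 on FL-Y and 7217.2 on activated FL-Y. It rose by 3.63 ± 0.42 (adjusted p = 0.00936). On this probe set the BMDC signals were far above the array medians, and both FDC arrays and both FL-Y arrays were higher still. The other Col5a1 probe sets read 284.3 and 299.4, and 112 and 68, on BMDC. Col5a3, a rarer chain of type V, read 8.4 and 60.8 on BMDC, 307.7 and 1941.2 on FDC, 455.1 on FL-Y and 561 on activated FL-Y. The groups did not overlap, the FDC arrays were 6.31-fold apart, and the difference was not called (4.27 ± 1.02, adjusted p = 0.0679). With 1 array left out, its difference ran from 2.97 without FDC array 2 to 5.57 without FDC array 1, the lower one. Wherever an array is left out, the lone array of that cell type is assumed to vary like the other pair. The p of such a fit therefore holds nothing of the spread within the group of the lone array. Col11a1, a chain of the type XI collagen of cartilage fibrils, read 4.4 and 65.5 on BMDC, 420.2 and 433.5 on FDC, 745.1 on FL-Y and 495.7 on activated FL-Y. It was called by a small margin (3.52 ± 0.74, adjusted p = 0.0481). The call was lost in 6 of 12 other settings, among them leaving out BMDC array 1, FDC array 1 or FDC array 2, with an adjusted p from 0.0786 to 0.117.

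The remaining fibrillar members were dim. Col27a1 read 24.4 and 204.1 on BMDC, 335 and 329.1 on FDC, 115.6 on FL-Y and 14.6 on activated FL-Y, and was not called (1.92, adjusted p = 0.258). With 1 array left out, its difference ran from 0.67 without BMDC array 1 to 3.17 without BMDC array 2. Col24a1 was the one member with a lower mean in FDC at an unadjusted p under 0.05, at 207.4 and 81.7 on BMDC and 18.1 and 35.8 on FDC (-1.86, adjusted p = 0.116). It read 33.8 on FL-Y and 1.8 on activated FL-Y. Col2a1, the collagen of cartilage, read 42.9 and 73.1 on BMDC, 20.2 and 17.1 on FDC, 31.1 on FL-Y and 14.8 on activated FL-Y and was too dim to test. Col11a2 stayed between 7.6 and 93.2.

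Of the 6 type IV chains of basement membranes, 2 rose, and these are the pair that makes up the common α1α1α2 form. Col4a1 read 54 and 82.3 on BMDC, 7591.2 and 3176.5 on FDC, 1177.4 on FL-Y and 691.4 on activated FL-Y, a difference between FDC and BMDC of 5.92 ± 0.55 (adjusted p = 0.00507). Col4a2 read 103.1 and 4.2 on BMDC, 4153.5 and 2573.2 on FDC, 978.5 on FL-Y and 501.9 on activated FL-Y, a difference of 6.14 ± 0.92 (adjusted p = 0.0187). For both chains the order was FDC, then FL-Y, then activated FL-Y, then BMDC. The call for Col4a2 was lost without FDC array 1 (adjusted p = 0.0586). Col4a5, a chain of the α3α4α5 and α5α5α6 networks, read 30.5 and 95.2 on BMDC, 291.7 and 1064.4 on FDC, 925.2 on FL-Y and 599.4 on activated FL-Y. The groups did not overlap, and the difference of 3.04 ± 0.77 missed the threshold (adjusted p = 0.0797). With 1 array left out, the difference ran from 2.13 without FDC array 2 to 3.95 without FDC array 1.

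The other type IV chains were too dim to test. Col4a3 read 34.3 and 51.2 on BMDC, 3.7 and 14.1 on FDC, 5.2 on FL-Y and 1.8 on activated FL-Y. Col4a4 read 43.2 and 64.3, then 3.6 and 9, 21.3 and 2.5 on the same arrays. Col4a6 read 34.4 and 72.4, then 18 and 80, 60.3 and 45.5. Among the neighbouring pairs, Col4a1 and Col4a2 were both called and Col4a3 and Col4a4 both too dim to test, while of Col4a5 and Col4a6 only the first was bright enough.

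Type VI collagen, whose main form joins 1 chain each of Col6a1, Col6a2 and Col6a3, split the FDC arrays. Col6a1 read 4.2 and 64.1 on BMDC, 21944.4 and 764.2 on FDC, 6933.7 on FL-Y and 4846.2 on activated FL-Y. Col6a2 read 8.2 and 7 on BMDC, 16418.5 and 636.7 on FDC, 5276.2 on FL-Y and 2725.8 on activated FL-Y. FDC array 1 was 28.7-fold above FDC array 2 for Col6a1 and 25.8-fold for Col6a2, and both FDC arrays lay above both BMDC arrays. Col6a2 passed the test (7.23 ± 1.47, adjusted p = 0.0443) and Col6a1 did not (6.77 ± 1.65, adjusted p = 0.0705). Leaving out BMDC array 1 or 2 ended the call for Col6a2 (adjusted p = 0.106 and 0.111), as did its second probe set (4.2, adjusted p = 0.124), which read 6684.3 and 454.9 on the FDC arrays. With 1 array left out, the difference of Col6a1 ran from 4.36 without FDC array 1 to 9.18 without FDC array 2, the low one.

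Col6a3, the longest chain, did not follow the other two. It read 2.6 and 77.6 on BMDC, 421.2 and 270.4 on FDC, 8988.3 on FL-Y and 4657.9 on activated FL-Y, so both FDC arrays were above both BMDC arrays and far below the line. The difference between FDC and BMDC of 3.16 ± 0.85 was not called (adjusted p = 0.0927). With 1 array left out, it ran from 1.94 without BMDC array 1 to 4.39 without BMDC array 2. Col6a4 and Col6a5, chains thought able to stand in for Col6a3, were too dim to test. Col6a4 read 45.4 and 50.2 on BMDC, 3.2 and 5.5 on FDC, 10 on FL-Y and 96.6 on activated FL-Y. Col6a5 read 2.8 and 19.6, then 6.1 and 61.6, 9.3 and 22.3 on the same arrays.

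Of 9 FACIT members, 2 rose, and both are collagens that bind to the surface of type I fibrils or to the matrix near cells. Col12a1 read 61.5 and 9.9 on BMDC, 2336.9 and 2477 on FDC, 1237.3 on FL-Y and 633.1 on activated FL-Y, a difference of 5.82 ± 0.62 (adjusted p = 0.00734). Col16a1 read 52.7 and 67.5 on BMDC, 2440.7 and 3106.5 on FDC, 1976.3 on FL-Y and 1336 on activated FL-Y, a difference of 5.23 ± 0.39 (adjusted p = 0.00344). For both genes the FDC arrays lay close together, 1.06-fold and 1.27-fold apart. Col14a1, a FACIT that binds decorin on fibrils, read 50.4 and 34.4 on BMDC, 3702.9 and 81.8 on FDC, 128.3 on FL-Y and 60.3 on activated FL-Y. FDC array 1 alone was high, 45.3-fold above FDC array 2, and the difference was not called (3.41 ± 1.66, adjusted p = 0.30). Its other 2 probe sets split the FDC arrays the same way, at 3451.4 and 30.3 and at 659.8 and 2.9. With 1 array left out, the difference of Col14a1 ran from 0.78 without FDC array 1 to 6.05 without FDC array 2. Col20a1 and Col22a1 were tested and not called, and the chains of type IX (Col9a1, Col9a2 and Col9a3) and Col19a1 were too dim to test, with signals from 3 to 121.1.

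Among the smaller classes, Col8a1, a short-chain collagen of hexagonal networks, read 3.8 and 59.7 on BMDC, 4346.9 and 3714.4 on FDC, 3901.3 on FL-Y and 3200 on activated FL-Y. It rose by 6.79 ± 0.72 (adjusted p = 0.00732), and its other 2 probe sets also passed the test. The partner gene Col8a2 reached 129.6 on FDC array 1 and lay between 7.4 and 32.2 elsewhere, and Col10a1, the collagen of hypertrophic cartilage, stayed at or below 32.6. Col18a1, a basement membrane collagen whose end fragment is endostatin, read 11.4 and 15.9 on BMDC, 248.8 and 192 on FDC, 229.9 on FL-Y and 225.1 on activated FL-Y. It rose by 3.07 ± 0.39 (adjusted p = 0.0116), while its second probe set gave 1.97 and an adjusted p of 0.187. Without BMDC array 1 the adjusted p was 0.0547, and without either FDC array the gene fell under the filter.

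Col15a1, the other multiplexin, read 71.8 and 97.6 on BMDC, 226.8 and 350.5 on FDC, 59.8 on FL-Y and 33 on activated FL-Y. Both FDC arrays were the highest of the 6, and the difference was not called (1.60 ± 0.42, adjusted p = 0.0893). Col7a1, which forms the anchoring fibrils of skin, read 152.1 and 91.5 on BMDC, 147.8 and 284.4 on FDC, 102 on FL-Y and 65.4 on activated FL-Y, and the groups overlapped (0.73, adjusted p = 0.452). The transmembrane collagens Col13a1, Col17a1, Col23a1 and Col25a1 did not exceed 155.8 on any array, nor Col26a1 48.6. Col21a1, Col28a1 and Col6a6 were not analysed here.

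Over all 82 collagen probe sets, some of them too dim to test, 23 were called higher in FDC and 0 lower. The shares over all probe sets tested were 4.84% and 4.09%. Of the 13 members that rose, 11 had several probe sets, and for 6 of these every probe set was called. In the 12 other settings, 4 of the 13 lost the call at least once, and these were Col11a1, Col6a2, Col18a1 and Col4a2. The other 9 kept it in all 12.

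Genes that fold, cut and bind collagen were counted from lists set beside the members. Over all probe sets tested, the shares called higher and lower in FDC were 4.84% and 4.09%. As with the collagens, a listed gene that passed the filter only through the FDC arrays had to differ. Of 21 measured genes for the folding and modification of collagen in the endoplasmic reticulum, 11 rose, 0 fell, 9 were not called and 1 was too dim to test. Serpinh1, the collagen chaperone HSP47, read 7.4 and 18.2 on BMDC, 22758.1 and 16524.9 on FDC, 27016.3 on FL-Y and 18105.6 on activated FL-Y, a difference of 9.52 ± 0.43 (adjusted p = 0.00264). P3h4, a partner in lysyl hydroxylation, rose by 6.15, Plod2, a lysyl hydroxylase, by 5.95 and P4ha2, a prolyl hydroxylase subunit, by 5.89. The general chaperones of the same list were bright in both cell types: P4hb (protein disulfide isomerase) read 24597.8 and 22194.7 on BMDC and 20398 and 19708.9 on FDC. Ppib (cyclophilin B) read 24518.3 and 22974.6 on BMDC and 32476.1 and 22300.8 on FDC. The count of 11 fell to between 5 and 9 when 1 array was left out, and was 5 without BMDC array 2, 6 without BMDC array 1 and 7 without FDC array 1. It was 6 with no filter on dim probe sets.

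Of 10 measured genes for the cleavage and crosslinking of procollagen, 5 rose, 0 fell, 2 were not called and 3 were too dim to test. The shares over all probe sets tested were again 4.84% higher and 4.09% lower. Pcolce, which speeds removal of the C-terminal propeptide, rose by 9.37, the lysyl oxidases Lox and Loxl1 by 8.38 and 8.10, and Bmp1, the propeptide protease, by 4.98. Lox read 93.5 and 212.5 on BMDC, 58045.6 and 46762.9 on FDC, 20996.4 on FL-Y and 10262.2 on activated FL-Y. Of 10 measured collagen receptors, 3 rose, 1 fell and 6 were not called. Ddr2, a receptor kinase for fibrillar collagen, rose by 7.78 and read 20.1 and 7.8 on BMDC against 9099.8 and 3991.6 on FDC. Mrc2, which takes up collagen fragments, rose by 5.88 and Ddr1 by 3.24, and the platelet receptor gene Gp6 fell by 2.23. The call for Gp6 was lost with any 1 of the 4 arrays left out (adjusted p from 0.0619 to 0.152). That for Ddr1 was lost without BMDC array 1 or FDC array 1 (adjusted p = 0.0838 and 0.0797). Of 12 matrix genes whose products lie on or near fibrils, 6 rose, 0 fell, 4 were not called and 2 were too dim to test. Sparc rose by 10.17, Dcn (decorin) by 9.67, Bgn (biglycan) by 8.83 and Fbln2 (fibulin 2) by 8.61. Fn1, fibronectin, was bright on the BMDC arrays too, at 30731.5 and 20652.8, against 28267.5 and 23941.8 on FDC.

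The split between the FDC arrays was looked at across the members. Of 15 collagen genes with a signal of at least 500 on 1 of the FDC arrays, 3 (Col6a1, Col6a2 and Col14a1) were higher on array 1 by 4 or more on the log2 scale, and 0 were that much higher on array 2. Over the 11649 probe sets with such a signal, 0.558% were that much higher on array 1 and 0.318% on array 2. Neither mark belonged to the planned comparisons, so these shares are a description. The median difference, array 2 minus array 1, was -0.23 over the 15 collagen genes and -0.02 over the 11649 probe sets. Col5a3 and Col4a5 went the other way, 6.31-fold and 3.65-fold higher on array 2. Other matrix genes, chosen after their values were seen, differed along with them. Fmod (fibromodulin) was 58.7-fold, Pcolce2 17-fold, Dpt (dermatopontin) 6.92-fold and Postn (periostin) 5.5-fold higher on array 1. The contractile genes Cnn1 (calponin), Acta2 and Tagln were 27.5-fold, 4.29-fold and 2.61-fold higher on array 2. The 8 mural and smooth muscle markers summed to 19226 on FDC array 1 and 62763 on FDC array 2, of which Acta2 and Tagln gave most on both. The 10 fibroblast markers summed to 70397 and 41419, of which Postn gave 32792 and 5961.8, while Pdpn (6473.4 and 11598.5) and Twist2 (373.6 and 1930.9) were higher on array 2. The part of the cell types in the split of the collagens was not tested.

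**Figure D3:**
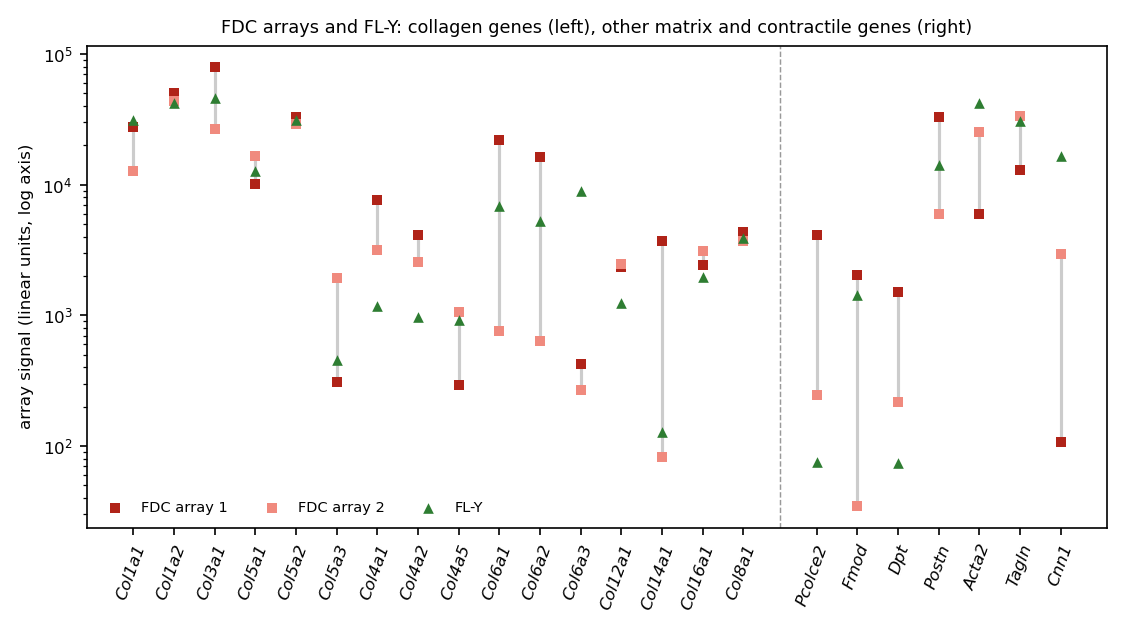
Signal on FDC array 1, FDC array 2 and FL-Y, in linear units on a log axis, for 16 collagen genes and, right of the dashed line, 7 other matrix and contractile genes; grey bars join the FDC arrays. Col6a1, Col6a2 and Col14a1 have long bars with FDC array 1 on top, Cnn1 has one with FDC array 2 on top, and Col6a3 has FL-Y far above both.

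The line FL-Y was set beside the FDC cultures to see how far its collagen pattern resembled theirs. With 1 array there is no test, and a gene was counted when it lay at least 2-fold (1 on the log2 scale) above or below both FDC arrays. By this mark 1 of the 42 members was higher in FL-Y and 6 were lower, where the shares over all probe sets were 7.11% and 11.2%. Rescaling the arrays to a common median gave 2 and 5. The median difference was -0.18 over the members and -0.128 over all probe sets. The one higher gene was Col6a3, which exceeded FDC array 1 by 4.37 and FDC array 2 by 4.98. Col4a1, Col4a2, Col15a1, Col20a1 and Col27a1 were lower by all 3 scalings (as deposited, quantile normalized and rescaled). After rescaling, Col4a2 stood close to the mark, at -1.64 and -1. As deposited, the differences of Col4a1 were -2.67 and -1.42 and those of Col4a2 -2.07 and -1.38. Those of Col15a1 were -1.70 and -2.30 and those of Col27a1 -1.43 and -1.40. A second Col27a1 probe set read 47.2 on FL-Y against 91.2 and 144.6 on FDC and did not pass the mark. The last 2 of the 6, Col20a1 and Col9a3, did not exceed 153.2 on any array.

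Col1a1, Col1a2, Col3a1, Col5a1 and Col5a2 did not pass the 2-fold mark between FL-Y and both FDC arrays, and Col11a1 passed it only after rescaling (1.23 and 1.13 higher). For Col1a1, FL-Y stood above both FDC arrays, by 0.18 and 1.30, while on its second probe set FL-Y (808.4) lay between them (964.1 and 506.2). FL-Y minus each FDC array was -0.25 and -0.05 on the log2 scale for Col1a2, -0.09 and 0.10 for Col5a2 and -0.16 and 0.07 for Col8a1. Other probe sets of Col1a2 read 30874.1 on FL-Y against 21843 and 12818.6 on FDC, and 514.7 against 145.8 and 1051.6. Those of Col8a1 read 405.6 on FL-Y against 739.6 and 1007.9, and 3313.9 against 3386.8 and 3672.7. The FL-Y signals of Col3a1, Col5a1, Col6a1 and Col6a2 lay between the FDC arrays. For Col5a1 this held on the brightest probe set only. Its others read 5167.9 on FL-Y against 2320.8 and 3423.7 on FDC, and 1953.6 against 1052.2 and 1296.7. FL-Y minus FDC array 1 and array 2 was -1.66 and 3.16 for Col6a1 and -1.64 and 3.02 for Col6a2. For Col14a1, FL-Y (128.3) was close to FDC array 2 (81.8) and far below FDC array 1 (3702.9). Of the mural and smooth muscle markers, Acta2 (42509.8), Tagln (30519.8) and Cnn1 (16707.6) made up nearly all of the FL-Y sum of 90476, while Rgs5 and Cspg4 read 44.9 and 9.9. Their part in these values was not tested.

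Against both BMDC arrays, FL-Y was at least 2-fold higher for 18 members and lower for 5, where the shares over all probe sets were 10.4% and 14.3%. The median difference was 0.93 over the members and -0.119 over all probe sets. The 18 were Col1a1, Col1a2, Col3a1, Col5a1, Col5a2, Col5a3 and Col11a1 of the fibrillar class, Col4a1, Col4a2 and Col4a5, Col6a1, Col6a2 and Col6a3, Col12a1, Col14a1 and Col16a1, and Col8a1 and Col18a1. Of them, 16 had a signal over 400 on FL-Y, and Col18a1 and Col14a1 lay below it. For Col14a1 and Col5a3 the mark was passed on the brightest probe set only. The others of Col14a1 read 10.7 on FL-Y against 29.3 and 24.3 on BMDC, and 10.2 against 2.9 and 4.8. The other of Col5a3 read 8.7 against 32.2 and 11.2. The 5 lower members (Col4a3, Col6a4, Col11a2, Col20a1 and Col22a1) did not exceed 153.2 on any array, and their count was 0 with a larger offset of 52.25 in the log2. This comparison shares the BMDC arrays with that of FDC and the FL-Y array with that against FDC.

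Activation of FL-Y through the LTbeta receptor was read from 1 array each, so its differences have no replicate check. By the 2-fold mark, 6 members were higher after activation and 6 lower, against 4.82% and 10.8% of all probe sets, and all 12 had signals under 200 on both arrays. The higher ones were Col6a4, Col22a1, Col9a2, Col9a3, Col11a2 and Col17a1, and the lower ones Col4a4, Col19a1, Col24a1, Col27a1, Col10a1 and Col26a1. With the offset of 52.25 the counts were 1 and 2. The median difference was -0.55 over the 42 members and -0.079 over all probe sets.

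The bright members shifted together by less than 2-fold. Of 12 collagen genes with a signal over 1000 on FL-Y, 12 were lower after activation, by -0.28 to -0.95 on the log2 scale with a median of -0.61. The count takes the brightest probe set of each gene. A second Col1a1 probe set read 808.4 before and 814 after, while second ones of Col3a1, Col5a2 and Col6a2 were lower (-0.57, -0.43 and -0.75). Of all 6776 probe sets over 1000, 53.5% were lower, with a median of -0.03. The brightest probe sets in general were lower after activation: over 10000, 85.1% of 751 probe sets and 5 of 5 collagen genes were, with medians of -0.21 and -0.53. After quantile normalization, which evens out such a trend, 12 of the 12 were lower with a median of -0.55. After rescaling to a common median, all probe sets over 1000 had a median difference of 0.32, and 11 of the 12 collagen genes were lower, with a median of -0.26, and Col8a1 was 0.07 higher.

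By chain, Col6a2 (5276.2 to 2725.8) and Col6a3 (8988.3 to 4657.9) differed by -0.95 each, and Col6a1 (6933.7 to 4846.2) by -0.52. Col12a1 differed by -0.95, Col4a2 by -0.94, Col5a1 by -0.82 and Col4a1 by -0.76. The difference was -0.66 for Col3a1, -0.56 for Col16a1, -0.53 for Col1a1, -0.47 for Col1a2, -0.42 for Col5a2 and -0.28 for Col8a1. Col5a3 went the other way, 0.29 higher as deposited and 0.21 and 0.64 higher after quantile normalization and rescaling. Lox, the crosslinking oxidase, was also lower, at 20996.4 before and 10262.2 after, while decorin (Dcn) was higher, at 4233.2 and 10876.9. Without a second array of either state, these differences cannot be set against the spread between cultures.

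**Figure D4:**
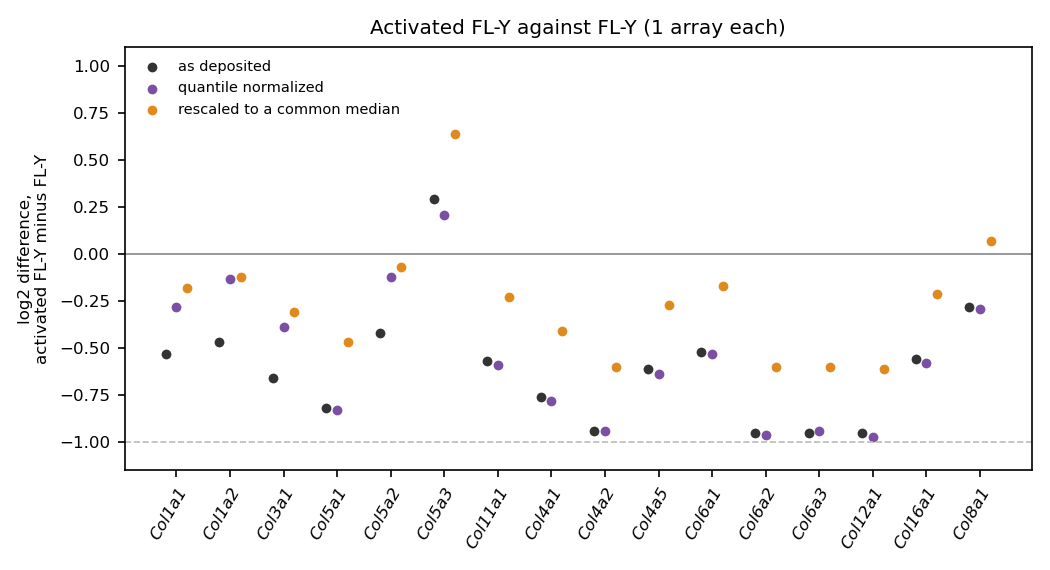
Log2 difference between activated FL-Y and FL-Y (1 array each) for the 16 collagen genes with a signal over 400 on FL-Y, as deposited, after quantile normalization and after rescaling to a common median; the dashed line marks a 2-fold lower signal. As deposited, 15 of the 16 lie below 0 and above the dashed line, and Col5a3 lies above 0.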

How the data were processed

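Total RNA was labelled with biotin and hybridised to 1 one-colour array per sample, per the labels. The deposited table gives an intensity on a linear scale for every probe set on each array (45101 probe sets, 64 of them controls). Its mean after trimming 2% at each end was 500 on every array, so the authors had scaled the deposited values. Detection calls were not used, and which program made the values, with what background handling, is not given in the sources used here. By the platform annotation 34945 probe sets had 1 gene, 932 several and 9160 were not listed, and probe sets with several were left unnamed.

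Signals were turned into log2(signal + 14.2), where 14.2 is the median of the arrays' 20th percentiles and understates the change of dim genes. Probe sets with a mean above the 40th percentile over the FDC and BMDC arrays (a signal of 46.39) were tested, 27022 in all. The FDC arrays were compared with the BMDC arrays in limma 3.58.1 (lmFit, eBayes; residual degrees of freedom 2, prior 3.353) under R 4.3.3, two-sided, with Benjamini-Hochberg adjustment. With 2 arrays a side the smallest exact permutation p is 0.333, so no such test was used. Precision is limited by the number of arrays. Log2 values correlated at 0.92 for the BMDC arrays and 0.907 for the FDC arrays, as a description over probe sets, which do not vary independently.

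Values on every array are given for each called member, each member past 2-fold in FL-Y with a signal of at least 200, and each chain of types I to VI. Up to 4 called genes of each list beside the collagens are named, and others were chosen after their values were seen. Members, classes and lists were chosen with earlier results of these data known. The marker lists for endothelial, epithelial, chondrocyte and Schwann cells summed to 1673, 1862, 970 and 1492 on BMDC array 1, 1677, 2245, 239 and 1805 on BMDC array 2, 803, 322, 504 and 3652 on FDC array 1, 1410, 272, 349 and 4220 on FDC array 2, 245, 160, 351 and 4055 on FL-Y, and 246, 121, 335 and 2468 on activated FL-Y. Of the Schwann sums, Ncam1 gave 2899.4 and 4075.3 on FDC and 3730.1 on FL-Y. Mbp gave 1181.4 and 1367.2 on BMDC and was lower on FDC (585.7 and 21.2). Sox10, S100b and Gfap did not exceed 153.6 on any array.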

Additional observations from a re-analysis of the deposited data

How the results depend on the processing

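Alternatives were a floor at the 5th percentile (3.3) in place of the offset, a larger offset (the 40th percentile, 52.25), quantile normalization or rescaling to a common median, another probe set or the median over the probe sets of a gene, no filter on dim probe sets, the array number as a replicate block, and each array left out. The settings for the genes beside the collagens were added after seeing the data. The count of collagen genes higher in FDC than in BMDC lay between 10 and 15 in all of these, from 10 to 14 with 1 array left out, and the count lower was 0 in all. With the replicate block it was 14: Col4a5 and Col5a3 were gained and Col11a1 was lost. The labels do not state that array numbers pair the samples, and the differences between array 2 and array 1 correlated at 0.109 between the cell types across probe sets.

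The counts for single arrays moved more. FL-Y above both FDC arrays gave 2 with the floor and 2 after rescaling, and below them 3 with the median over probe sets; with only 1 FDC array, 4 to 6 were higher and 12 to 13 lower. FL-Y below both BMDC arrays gave 9 with the floor, 0 with the larger offset and 1 with the median over probe sets. After activation, 10 members were lower with the floor, 1 was higher and 2 were lower with the larger offset, and 3 were higher and 2 lower with the median over probe sets. Of the folding list, 6 rose with no filter and 5 to 9 with 1 array left out. Of the receptors, 0 fell with the floor or with no filter, 2 with the larger offset and 0 to 1 with 1 array left out. The causes were not tested. Dim members carry little information here: 16 of 42 were under the filter.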
